A study of Mus musculus with 8 samples.

Results

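The 10 genes of the AP-1 and immediate early response described here were measured in C26 tumors with and without an intact gene for IL-6. They are the FOS genes Fos, Fosb, Fosl1 and Fosl2, the JUN genes Jun, Junb and Jund, the zinc finger genes Egr1 and Egr2, and Ier3. They were chosen by symbol, and 10 of 10 were found among the 27179 genes of the deposited table. The members and the gene lists below were chosen with earlier results of these data known. The shares of them that were called are therefore a description only. RNA sequencing covered 8 subcutaneous tumors in CD2F1 male mice that were 13 to 18 weeks old. cxC26 is a line of the mouse colon carcinoma C26 that causes cachexia, the wasting of body weight and muscle. The 4 cxC26 scr tumors grew from cells carrying Cas9 with a scrambled guide RNA, and the 4 cxC26 IL6KOs1 tumors from subclone s1, in which Cas9 with guides against the gene for IL-6 had been used. The knockout cells were made with the lentiCRISPRv2 vector and puromycin selection, and the group is a single clone. Tumors were taken once the mice had developed cachexia, and the sources used here do not name the day for the sequenced tumors. Where s1 tumors led to cachexia in the study's CD2F1 mice, as in its flow cytometry, the knockout cells were inoculated in larger number and reached this end point later. The genotype and the clone cannot be told apart here. If the same held for the sequenced tumors, the cell number and the time of growth cannot be told apart from them either.

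AP-1 is a family of transcription factors built as dimers of FOS and JUN proteins, which hold together through leucine zippers. JUN proteins can pair with each other, whereas FOS proteins need a JUN partner to bind DNA. Immediate early genes are transcribed within minutes of a growth factor, cytokine or stress signal without new protein synthesis, largely through MAP kinases that act on the serum response factor and its ETS partners. In tumors AP-1 is known for its part in proliferation, invasion and inflammatory gene expression, and the Il6 promoter itself holds an AP-1 site.

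The sequence just upstream of the transcription start is shown for the members named below, with each searched motif in capitals. Upstream sequence came from RefSeq on GRCm38.p6, where 8 of the 10 members were found, with 5 starts for Egr2. Fosl1 and Egr1 were not found there, and the stretch of Jund, which held no searched motif, is not printed. The window searched was the 250 bases before the start, on both strands. The stretches for Jun, Junb and Fos are the 120 bases up to the start, and that of Ier3 stops where an annotated exon begins. They are written 5′ to 3′ on the strand of the gene.
Jun, chr4:95052223-95052342, minus strand: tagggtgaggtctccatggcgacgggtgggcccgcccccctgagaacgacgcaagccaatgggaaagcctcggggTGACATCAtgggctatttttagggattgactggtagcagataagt
Junb, chr8:84978749-84978868, minus strand: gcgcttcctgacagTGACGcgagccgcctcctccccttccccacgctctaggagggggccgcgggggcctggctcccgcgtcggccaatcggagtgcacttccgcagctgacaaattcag
Fos, chr12:85473770-85473889, plus strand: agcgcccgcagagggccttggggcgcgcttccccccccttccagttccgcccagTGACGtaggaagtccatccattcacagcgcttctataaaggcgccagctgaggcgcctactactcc
Ier3, chr17:35821593-35821683, plus strand: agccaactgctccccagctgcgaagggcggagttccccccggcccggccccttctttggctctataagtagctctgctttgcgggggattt
Of Fosb, Fosl2 and Egr2 only the site is shown, since exons of other transcripts are annotated around it.
Fosb, chr7:19310082-19310110, minus strand: gcgggTGACGcaagcGCGGGGGCGggtcc
Fosl2, chr5:32136383-32136411, plus strand: ccggctgcgcGCGGGGGCGgaagggcgcg
Egr2, chr10:67537794-67537822, plus strand: agtCCATATATGGgcagcgaCGTCAcggg

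The capitals in Jun mark TGACATCA, the AP-1-like letters in the promoter of the gene that encodes the main JUN protein, which 3.41% of the 27025 genes with an upstream window held. The capitals TGACG in Fos, Fosb and Junb, read as CGTCA on the other strand in Egr2, are the core of the cAMP response element and were found in 19.8% of genes. GCGNGGGCG, the letters that EGR proteins bind, stood upstream of Fosb and Fosl2 and of 5.33% of genes. The remaining capitals in Egr2 are a CArG box, the element bound by serum response factor, which 1.62% of genes held. The ETS core CCGGAA was found among the members only upstream of another Egr2 start, against 13.6% of genes. In these windows 0 of 8 members held the AP-1 site TGANTCA (7.82% of genes), the full cAMP response element TGACGTCA (1.77%), which contains TGACG, or the STAT letters TTCNNNGAA (8.13%). Jund and Ier3 held none of the 8 motifs, and elements farther upstream were not searched.

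Levels are given as log2 CPM, a log2 read count scaled to the library size of the tumor. Between 14158989 and 17048062 reads per tumor were counted, and the lowest read count of a member in any tumor was 126, for Fos. All 10 members passed the filter on low values, at least 1 CPM in at least 4 tumors, as did 13262 genes in all. The targeted gene Il6 was at 4.33 to 4.83 log2 CPM in the cxC26 scr tumors and at 1.99 to 2.46 in the cxC26 IL6KOs1 tumors, and fell by 2.45 ± 0.165 (SE, n = 4 per group, limma adjusted p = 1.76e-06). The reads of Il6 that remained were not tested for the disrupted sequence, and the part of host cells in them was not tested either.

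Ier3, Fosb, Egr1, Fosl2 and Junb were lower in the cxC26 IL6KOs1 tumors, Jund was higher, and Fos, Fosl1, Jun and Egr2 did not pass the test. Thus 5 of 10 members were lower by limma at an adjusted p under 0.05, against 20.7% of all tested genes, and 1 of 10 was higher, against 19.1%. The values of the 4 tumors of each group did not overlap for the same 5 lower members (19.3% of all tested genes) and for Jund (17.8%). The median difference over the members was -0.33 on the log2 scale, whereas over all tested genes it was -0.0029. In an exact permutation test over the 70 splits of the 8 tumors, the 6 called members each gave the smallest two-sided p that this design allows, 0.0286. The labels do not say that each tumor came from a separate mouse, so the p-values measure the spread between these tumors. Since the 4 knockout tumors came from 1 clone, the p-values do not cover differences between clones.

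**Figure D1:**
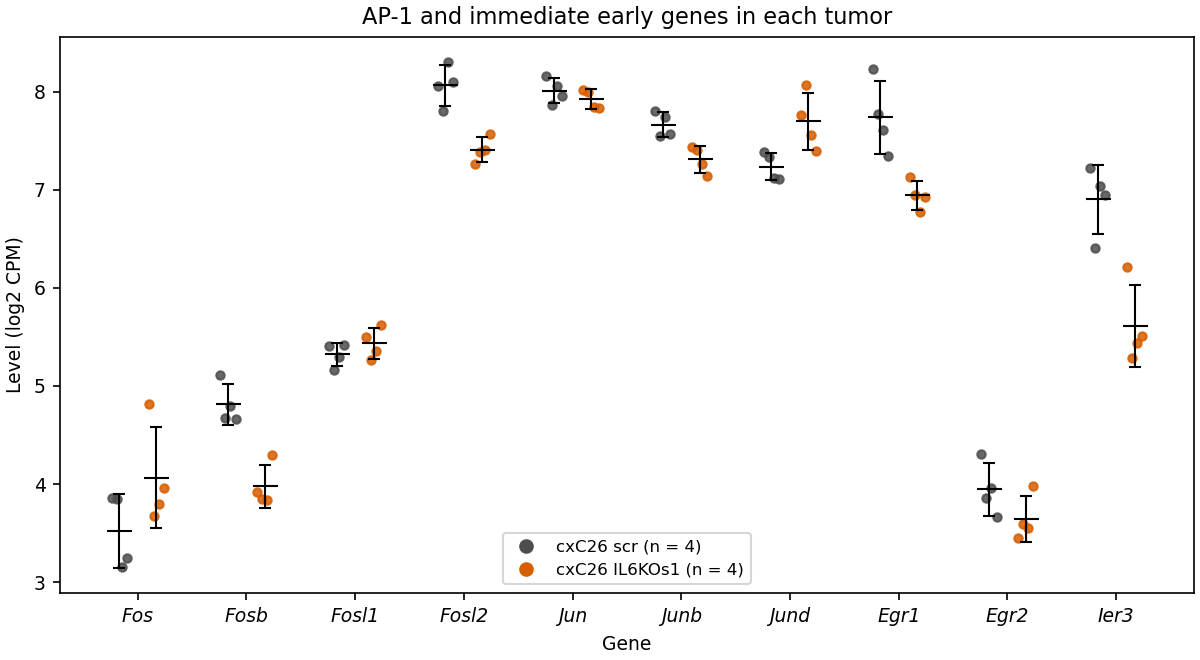
Level of each gene in log2 CPM (vertical axis) for the 4 cxC26 scr tumors (grey points) and the 4 cxC26 IL6KOs1 tumors (orange points), with bars for the mean and SD. The 2 sets of points are apart for Ier3, Fosb, Egr1, Fosl2 and Junb, where the knockout is lower, and for Jund, where it is higher.

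Ier3 showed the largest difference of the 10. It encodes a short-lived stress protein that modulates ERK and NF-κB signalling and cell survival. Its levels were 7.22, 6.41, 7.04 and 6.94 log2 CPM in the 4 cxC26 scr tumors and 6.21, 5.28, 5.44 and 5.50 in the 4 cxC26 IL6KOs1 tumors. Tumor 1 of the knockout group stood above the other 3 of its group and just under the lowest control. The mean of the knockout group was 40.9% of that of the controls, and Ier3 fell by 1.29 ± 0.205 on the log2 scale (SE, adjusted p = 0.000579). In the alternatives tried this difference was between -1.49 and -1.18, and Ier3 was the only member that also passed a 2-fold threshold.

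Among the FOS genes, Fosb and Fosl2 fell. Fosb encodes a FOS protein with a transactivation domain and, by splicing, the shorter and more stable ΔFosB. Its levels were 5.12, 4.68, 4.79 and 4.67 log2 CPM in the cxC26 scr tumors and 3.92, 3.85, 3.84 and 4.30 in the cxC26 IL6KOs1 tumors. All 4 knockout tumors lay below the lowest control, and Fosb fell by 0.83 ± 0.142 (adjusted p = 0.000868), to 56.1% of the control mean. Fosl2, which encodes FRA2 and lacks the strong transactivation domain of Fos, was the highest FOS transcript in CPM in every tumor. Per kb of the longest transcript it was highest in all but knockout tumor 1, where Fosl1 was above it. Fosl2 stood at 8.05, 7.80, 8.30 and 8.10 log2 CPM in the controls and at 7.26, 7.39, 7.41 and 7.57 in the knockout. Again no knockout tumor reached the lowest control, and the difference was -0.66 ± 0.110 (adjusted p = 0.000765), or 63.4% of the control mean.

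Fos itself, the prototype of the family, went the other way in value but did not pass the test. Its levels were 3.86, 3.84, 3.15 and 3.25 log2 CPM in the controls and 4.82, 3.68, 3.80 and 3.96 in the knockout. The groups overlapped, and knockout tumor 1 was the highest of all 8. The difference was 0.54 (95% confidence interval -0.01 to 1.09, adjusted p = 0.110), so a doubling was inside the interval. Fosl1, which encodes FRA1, was at 5.16 to 5.42 log2 CPM in the controls and at 5.26 to 5.62 in the knockout, with a difference of 0.11 (-0.12 to 0.34, adjusted p = 0.426).

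The JUN genes moved in opposite directions. Junb encodes a JUN protein that is a weaker activator than JUN and can restrain it. Its levels were 7.81, 7.55, 7.74 and 7.57 log2 CPM in the cxC26 scr tumors and 7.43, 7.41, 7.26 and 7.14 in the cxC26 IL6KOs1 tumors. The groups were apart by a narrow margin, and Junb fell by 0.35 ± 0.0944 (adjusted p = 0.0115). Jund, the JUN gene that is least dependent on acute stimulation, rose from 7.38, 7.33, 7.12 and 7.11 log2 CPM to 7.76, 8.07, 7.56 and 7.39. The highest control and the lowest knockout tumor almost touched. The difference of 0.46 ± 0.134 passed at an adjusted p of 0.0174, but the call was lost without cxC26 scr tumor 3 (adjusted p = 0.0530), without cxC26 scr tumor 4 (0.0540) and when no filter on low values was applied (0.0620). Jun, the gene of the main JUN protein, was at 7.86 to 8.16 log2 CPM in the controls and 7.83 to 8.02 in the knockout, with a difference of -0.09 (-0.28 to 0.11, adjusted p = 0.472).

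Jun, Junb, Jund and Fosl1 overlap other annotated genes: Junos lies antisense to Jun, Prdx2 opposite to Junb, Gm11175 antisense to Jund, and Ccdc85b opposite to Fosl1. The strand setting of the counting is not given in the sources used here, so reads of these pairs cannot be told apart. Jund lies at chr8:70697739-70700616 and Fosl1 at chr19:5447698-5455938 of GRCm38.

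EGR proteins are zinc finger factors induced together with Fos. Egr1, at chr18:34861207-34864956 of GRCm38, was at 8.23, 7.78, 7.61 and 7.34 log2 CPM in the cxC26 scr tumors and at 7.13, 6.95, 6.77 and 6.93 in the cxC26 IL6KOs1 tumors. The controls were spread widely, yet their lowest tumor stayed above the highest knockout tumor. Egr1 fell by 0.79 ± 0.158 (adjusted p = 0.00219), to 57.7% of the control mean. Egr2 was at 3.66 to 4.31 log2 CPM in the controls and at 3.45 to 3.98 in the knockout. These ranges overlapped, and its difference of -0.30 (-0.67 to 0.06, adjusted p = 0.166) did not pass.

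Because all knockout tumors came from 1 clone, each member was also set beside its neighbours on the chromosome, the tested genes in the same window of 10 Mb. The median difference of these neighbours was -0.36 around Fosl2 and -0.35 around Fosb, and it was 0.33 around Fosl1 and 0.34 around Egr2. Around the other 6 members it was between -0.09 and 0.09. With the regional median removed from every tumor, the difference of Fosl2 became -0.32 (adjusted p = 0.0452) and that of Fosb -0.47 (0.0181). Egr2 became -0.64 and passed as lower (adjusted p = 0.00942), whereas Fosl1 turned to -0.20 without passing. The values of Ier3 (-1.33), Egr1 (-0.70), Junb (-0.44) and Jund (0.40) moved by less.

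**Figure D2:**
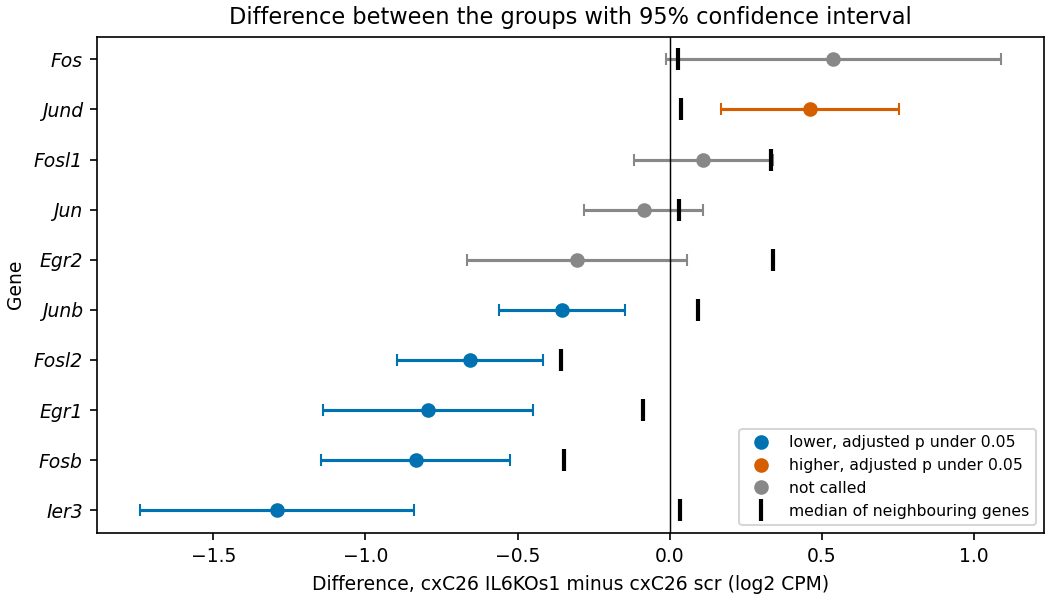
Difference between the groups in log2 CPM (horizontal axis) for each gene, with its 95% confidence interval, coloured by its call, and a black tick for the median of the genes in the same 10 Mb window. Fosl2 and Fosb lie to the left of ticks that are themselves at about -0.36 and -0.35, while the ticks of Ier3 and Junb lie at 0.03 and 0.09.

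To compare the members with each other, levels were divided by the length of the longest transcript, giving log2 CPM per kb. In the cxC26 scr tumors the order from the top was Junb at 6.81, Ier3 at 6.72, Jund at 6.50 and Jun at 6.34, whose neighbouring ranges overlapped. Egr1 at 5.57 and Fosl2 at 5.35 overlapped each other and lay below them, followed by Fosl1 at 4.42. Fosb at 2.89, Fos at 2.45 and Egr2 at 2.38 formed the low end with overlapping ranges. In the cxC26 IL6KOs1 tumors Jund stood highest at 6.96, clear of Junb at 6.46. Ier3 at 5.43 came after Jun at 6.25 there and overlapped neither Jun nor Egr1 at 4.78. Fosl1 at 4.53 overlapped Fosl2 at 4.70, and Fos at 2.99 lay above Egr2 at 2.08 and Fosb at 2.06. This order depends on the length used. In log2 CPM without length, Fosl2 at 8.06 and Jun at 8.01 had the highest means in the cxC26 scr tumors. In the cxC26 IL6KOs1 tumors these were Jun at 7.92 and Jund at 7.70.

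Since AP-1 proteins compete for partners, the composition of each family was described as the share of a gene in the summed CPM per kb of its family. Fosl2 made up 51.1%, 51.0%, 59.6% and 55.1% of FOS transcripts in the controls and 36.0%, 45.7%, 44.6% and 42.7% in the knockout. Fosl1 took 26.1% to 30.2% in the controls and 36.7% to 38.8% in the knockout, although its own level did not pass the test. Fosb went from a mean of 9.88% to 6.77%, and Fos from 7.49% to 13.4%. Among JUN transcripts Jund made up 31.9%, 35.3%, 29.3% and 31.2% in the controls and 42.4%, 48.0%, 41.8% and 40.3% in the knockout. Junb made up 37.9% to 41.4% in the controls and 28.0% to 31.4% in the knockout. By the longest transcript the leading JUN transcript per kb was thus Junb in every control and Jund in every knockout tumor. This order turned with the length used: by coding length, and in CPM without length, Jun led in 4 of 4 controls and 3 of 4 knockout tumors, and Jund in the remaining knockout tumor.

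The groups did not overlap for 6 of the 7 shares, each with an exact two-sided permutation p of 0.0286, or 0.0333 after Benjamini-Hochberg adjustment over 7 shares. Jun was the exception, with 28.5% ± 1.24 (SD, n = 4) in the controls and 26.4% ± 1.91 in the knockout (exact permutation p = 0.0857). Shares within a family sum to the whole, so they are not independent of each other or of the levels above. Knockout tumor 1 held a Fos share of 20.5%, and without it the difference in Fos share was 3.51 percentage points in place of 5.89. The length used moved the FOS shares as well. By coding length Fosl2 made up 73.3% to 79.5% of FOS transcripts in the controls and 62.3% to 70.3% in the knockout. Fosl1 took 11.9% to 14.3% and 19.2% to 22.0% by that length. The difference for Fosl2 was -8.33 points with coding length and -7.97 without length, in place of -11.9 (adjusted p = 0.0400 in both). The difference for Fos was 3.09 points with coding length and 3.70 without length, and that for Fosl1 was 6.93 and 6.01 in place of 9.15, and both still passed (adjusted p = 0.0400). For Fosb it was -3.10 points per transcript length, but -1.69 with coding length and -1.74 without length, where it did not pass (adjusted p = 0.0667 in both). The summed level per kb was 75.8 ± 6.29 CPM for the FOS genes in the controls and 61.9 ± 5.63 in the knockout. For the JUN genes it was 284 ± 21.1 and 291 ± 38.0, and the groups overlapped in both sums.

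**Figure D3:**
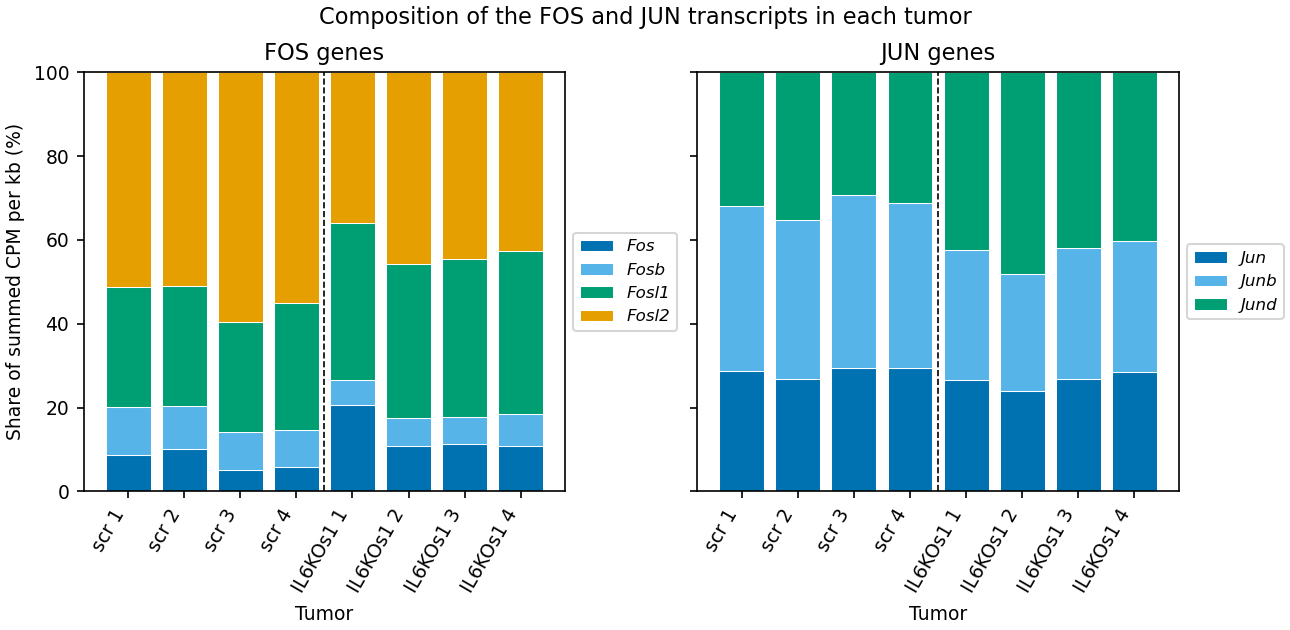
Share of each gene in the summed CPM per kb (vertical axis, %) of the FOS genes (left) and the JUN genes (right), with 1 bar per tumor and a dashed line between the cxC26 scr and the cxC26 IL6KOs1 tumors. The Fosl2 part shrinks from 51.0% or more in the controls to 45.7% or less in the knockout, and the Jund part grows from 35.3% or less to 40.3% or more.

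Within a group the tumors differed as well, and each member's deviation from its group mean was compared with that of the others over the 8 tumors. Over the 45 pairs of members the median Pearson correlation was 0.27 and the range -0.66 to 0.94. Jun and Junb varied most closely together (Pearson 0.94, Spearman 0.95), and without the 2 tumors farthest from the median of Jun the value was 0.96. Fosb and Egr2 gave 0.93 (Spearman 0.83), but only 0.38 without the 2 tumors farthest from the median of Fosb, which means that their relation rests on those tumors. Fos and Fosl2 gave the lowest value, -0.66. These correlations describe 8 libraries whose preparation batches the sources used here do not name, and no p is given for them.

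**Figure D4:**
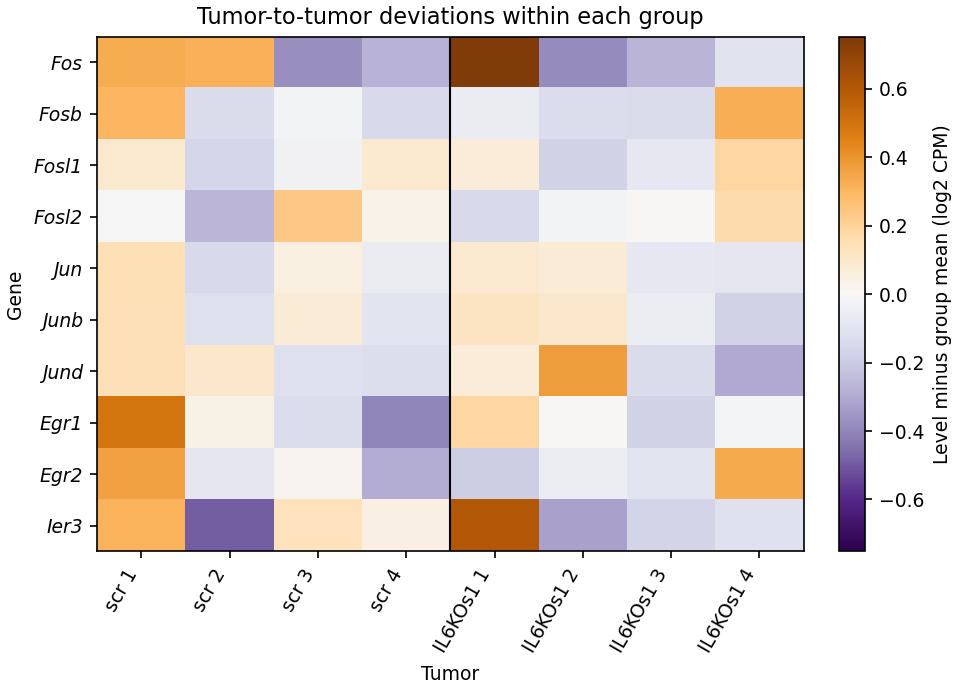
Deviation of each gene from its group mean in log2 CPM (colour) in each of the 8 tumors (columns), with a line between the groups. Jun and Junb deviate with the same sign in all 8 tumors, and Fos and Ier3 are both highest in knockout tumor 1, at 0.75 and 0.60 above their group mean.

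Among 6456 well-expressed genes, those whose deviations were most like a member's were Zmynd8 for Ier3 (Pearson 0.998), Abtb3 for Jund (0.992), Ephb4 for Jun (0.990), Dnm2 for Egr1 (0.987), Slc29a1 for Fos (0.983) and Ly75 for Fosl1 (0.983). For Fosb it was Pcdh1 (0.977), with Dusp4, a phosphatase of ERK and JNK, close behind at 0.972. Gna11 for Egr2 (0.969), Dhx38 for Junb (0.969) and Prune2 for Fosl2 (0.964) completed them. The second gene for Jun was Ppp1r15a (0.986), which encodes the stress-induced phosphatase subunit GADD34. Each value is over 8 tumors, and every member had such a partner among so many candidates.

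Of 29 other immediate early genes tested, 10 were lower and 6 higher (median -0.14), or 34.5% and 20.7%, against 20.7% and 19.1% of all tested genes. With the regional median removed 3 were higher. Nr4a1, an orphan nuclear receptor induced by many stimuli, was the highest of this list in the controls in CPM, not scaled to length. Its mean was 8.80 log2 CPM in the cxC26 scr tumors and 6.58 in the cxC26 IL6KOs1 tumors without overlap, and the gene fell by 2.22 ± 0.193 (adjusted p = 1.00e-05). Gem, a small GTPase, fell by 2.31 ± 0.210. Klf2, a zinc finger factor of endothelial cells and quiescent lymphocytes, rose by 1.53 ± 0.200. Mcl1, an antiapoptotic BCL2 relative, and Btg1, an antiproliferative gene, were among the highest of the list in both groups, and their differences of 0.18 and 0.24 did not pass. Without knockout tumor 4 Btg1 did pass as higher (0.34, adjusted p = 0.00932).

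Of 13 genes of other AP-1 dimer partners tested, 5 were higher and 1 lower (median 0.12), or 38.5% and 7.69%, against 19.1% and 20.7% of all tested genes. Jdp2, which encodes a repressor that pairs with JUN proteins, rose by 1.36 ± 0.167 (adjusted p = 0.000112). Maf, a basic leucine zipper factor of lymphocytes and macrophages among other cells, rose by 0.97 ± 0.145. The count of higher genes was 3 without cxC26 scr tumor 4, with no filter on low values and with the regional median removed. Atf4, the factor of the integrated stress response, rose by 0.40 ± 0.0961, but not once the regional median was removed (0.22, adjusted p = 0.110). Nfe2l1, the highest of the list in CPM in the controls and second to Atf4 in the knockout, differed by -0.09 without passing. Without cxC26 scr tumor 1 the count of lower genes was 2.

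Upstream of the members, 3 of 8 serum response and ternary complex factors were lower and 1 was higher (median -0.16), or 37.5% and 12.5%, against 20.7% and 19.1% of all tested genes. Elk4, an ETS partner of serum response factor, fell by 0.92 ± 0.141, and by 0.58 with the regional median removed. Fhl2, a LIM protein that binds serum response factor, fell by 0.77 ± 0.138, but its value was -0.35 without passing once the regional median was removed (adjusted p = 0.0651). Creb1 fell by 0.40 ± 0.0960, a value close to the median of its chromosomal neighbours, also -0.40. Elk3 was the 1 higher gene (0.32 ± 0.0941), and its call was lost without cxC26 scr tumor 2 or 4 or knockout tumor 2, with an adjusted p between 0.0508 and 0.0603. It was also lost with no filter on low values (adjusted p = 0.0542). The median of the neighbours of Elk3 was 0.34, and with the regional median removed its difference was -0.039 (adjusted p = 0.797).

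Of 25 MAP kinases and activators 5 were lower and 2 higher (median -0.08), or 20% and 8%, against 20.7% and 19.1% of all tested genes, so the share that was lower was near that of all genes. Mapk3, the gene of the kinase ERK1, was among the highest of the list in CPM and differed by -0.19 without passing. Map3k5, the stress kinase ASK1, rose by 1.42 ± 0.0911, from 4.26 to 4.48 log2 CPM in the controls to 5.73 to 5.87 in the knockout. The median of its neighbours was itself 0.60, and with the regional median removed Map3k5 differed by 0.87 (adjusted p = 6.49e-05). Rps6ka2 and Rps6ka3, kinases downstream of ERK, fell by 0.81 ± 0.182 and 0.62 ± 0.116. The count of lower genes was 3 without cxC26 scr tumor 2, without knockout tumor 3 and with no filter on low values.

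Genes of MAP kinase and AP-1 feedback, most of them induced by the pathway they restrain, were lower for 9 of 20 and higher for 4 (median -0.15), or 45% and 20%, against 20.7% and 19.1% of all tested genes. Errfi1, an inhibitor of the EGF receptor and the highest of them in CPM, fell by 0.70 ± 0.120. The phosphatases were divided: Dusp16 fell by 1.14 ± 0.130 and Dusp2 by 1.25 ± 0.190, whereas Dusp10 rose by 1.01 ± 0.165. Dusp6, a phosphatase of ERK, was high in CPM too and differed by 0.08 without passing.

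Reported AP-1 target genes, a list that holds Il6 itself, were lower for 14 of 29 tested and higher for 4, with a median of -0.36, or 48.3% and 13.8%, against 20.7% and 19.1% of all tested genes. The list also holds Il11 and Lif, whose RNA the paper had reported as reduced in the knockout tumors. It was chosen with earlier results of these data known, so its share is a description only. The largest fall was that of Areg, an EGF receptor ligand, at 6.88, 6.90, 6.78 and 6.56 log2 CPM in the controls and 1.35, 4.29, 2.78 and 2.53 in the knockout, a difference of -4.04 ± 0.444 (adjusted p = 5.38e-05). Il11, a cytokine of the IL-6 family, fell by 3.69 ± 0.191. Mmp9, a gelatinase, went the other way by the largest margin of the list, from 1.80 to 3.27 log2 CPM in the controls to 7.40 to 8.29 in the knockout, a rise of 5.27 ± 0.294. Spp1, a secreted phosphoprotein and the highest of the list in CPM in both groups, differed by 0.04 and did not pass. Tnc, an extracellular matrix glycoprotein and second to Spp1 in the controls, fell by 2.78 ± 0.161 (adjusted p = 8.63e-07), from a mean of 11.84 to 9.06 log2 CPM. Il1rl1, the receptor of IL-33, came next in the controls and differed by -0.05 without passing.

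Heat shock genes, which can be induced while tissue is handled, were lower for 3 of 13 and higher for 2 (median 0.22), or 23.1% and 15.4%, near the 20.7% and 19.1% of all tested genes. With the regional median removed 0 were lower, and with no filter on low values 1 was lower and 0 were higher. Hspa5, the chaperone of the endoplasmic reticulum, rose by 0.57 ± 0.147. Hsph1 fell by 0.64 ± 0.128, but by 0.18 without passing once the regional median was removed (adjusted p = 0.282). Hspd1, a mitochondrial chaperone, fell by 0.37 ± 0.104, and its value with the regional median removed was -0.06 (adjusted p = 0.708). Hspa1a and Hspa1b, the most inducible of them, differed by -0.21 ± 0.659 and 0.37 ± 0.523 and did not pass. The count of higher genes was 6 without cxC26 scr tumor 2 and 1 without cxC26 scr tumor 4.

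**Figure D5:**
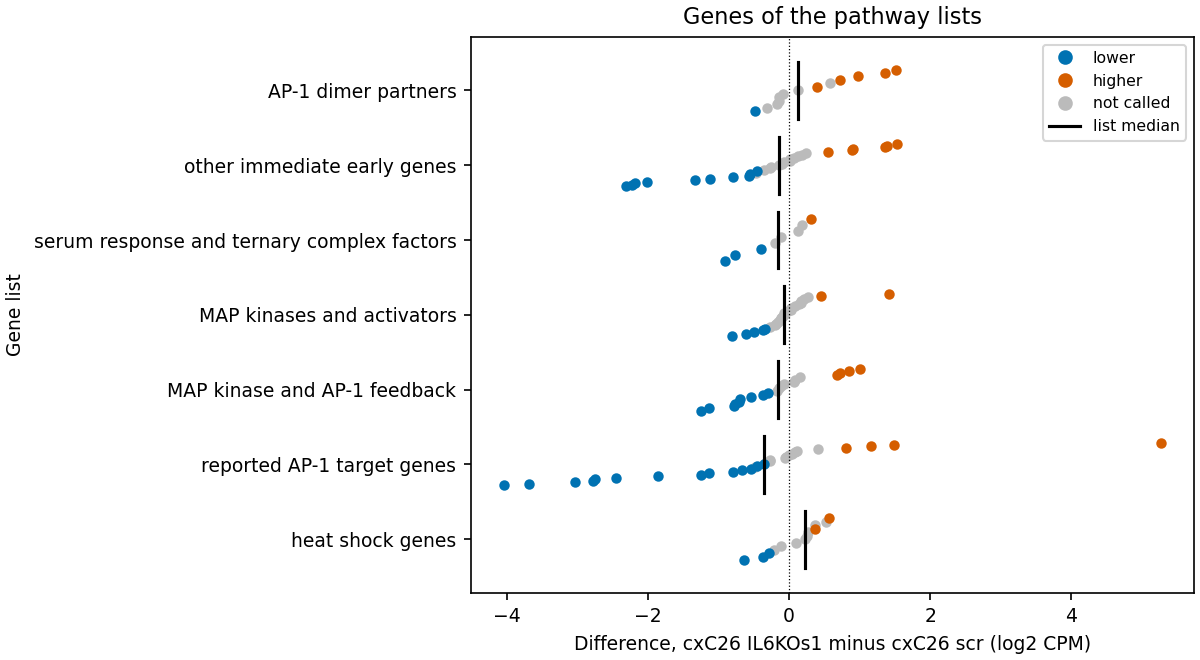
Difference between the groups in log2 CPM (horizontal axis) for the tested genes of 7 lists, coloured by call, with a black line at the median of each list. The reported AP-1 target genes spread the widest, from -4.04 for Areg to 5.27 for Mmp9.

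Markers of several other cell types differed between the groups. For comparison, 19.1% of all tested genes were higher and 20.7% lower. In bulk tumors fewer cells of a type and less RNA per cell cannot be told apart. Macrophage markers were higher for 8 of 9 (88.9%) and lower for 1, Cd163 (11.1%). Their summed level was 629 to 822 CPM in the controls and 1113 to 1885 in the knockout. Leukocyte markers were higher for 5 of 6 (83.3%) and lower for 1, Cytip (16.7%), and their sums overlapped (343 to 413 CPM against 352 to 675). Cytip held the largest part of the control sum, with a mean of 209 CPM there and 119 in the knockout. T cell markers were at 2.64 to 4.79 CPM against 11.4 to 22.7, with Cd3e and Cd3d under the filter. The 5 tested were higher, but each passed the filter only with the knockout tumors, so this count carries no weight. Mast cell markers were at 9.35 to 13.2 CPM against 24.2 in knockout tumor 1 and 131 to 142 in the other 3. All 5 tested were higher, but Cpa3 too passed the filter only with the knockout tumors. B and plasma cell markers were at 1.38 to 3.16 CPM against 8.42 to 73.4. Jchain, the 1 higher gene of 2 tested, likewise passed the filter only with the knockout tumors. Neutrophil markers were at 10.5 to 21.2 CPM against 16.0 to 28.7, with 1 of 3 tested higher (33.3%) and Ly6g under the filter. Fibroblast markers were lower for 3 of 7 (42.9%) and higher for 1 (14.3%), at 7784 to 10323 CPM against 5555 to 8704. Of 6 endothelial markers 1 was lower (16.7%), a share under that of all tested genes, at 101 to 155 CPM against 108 to 135. Of 5 skeletal muscle markers tested 0 passed by limma, also at an unadjusted p under 0.05 (8.19 to 166 CPM against 23.7 to 325.8). The part of these cells in the levels of the AP-1 and immediate early genes was not tested.

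The labelled origin, a colon carcinoma, was not reflected in epithelial markers. Of 7, only Krt18 and Cdh1 passed the filter, both higher in the knockout, the sum was 3.35 to 4.97 CPM against 14.5 to 26.7, and Cldn4 had 0 reads in all 8 tumors.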

How the data were processed

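RNA was sequenced from 4 cxC26 scr and 4 cxC26 IL6KOs1 tumors, grouped by their titles. The authors trimmed paired reads (Trimmomatic), aligned to mm10 (Hisat2), summarized per gene (featureCounts) and normalized with limma-voom, and the deposited unit is log2 CPM. The submitters' processing notes also name bcl2fastq. Versions of the aligner and counter, the annotation and the strand setting are not given in the sources used here. Inverting the voom offsets gave whole reads, within 0.01 read, for 100% of values.

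Differences were fitted with limma 3.58.1 (R 4.3.3, trended eBayes, no covariates) on the 13262 genes that reached 1 CPM in 4 or more tumors. P-values were adjusted by Benjamini-Hochberg and called under 0.05. Single values and shares were compared by exact permutation tests in SciPy 1.17.1. Intervals cover the spread between tumors, and depth was 14158989 reads or more per tumor. The fit was tested on simulated data.

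Positions and upstream sequence came from RefSeq (GRCm38.p6), and transcript lengths and overlaps from GENCODE M21. Same-numbered tumors did not deviate together (correlations -0.06 to 0.06). Genes named are the 10 members, Il6, the highest in CPM and the most changed of each list, and the closest companions of each member. Cd163, Cytip, Krt18, Cdh1, Cpa3, Jchain, Hspa1a, Hspa1b, Tnc and the markers under the filter were named after their values were seen. Lif was named because the paper reported it. Some genes that this rule names are not reported here. The members and lists were chosen with earlier results of these data known. The alternatives were other filters, normalizations, pseudocount and variance models, precision weights on recovered reads, a replicate block, single tumors left out, regional medians removed, a 2-fold threshold and other length scalings. Body weight, cytokine and flow cytometry data were not analysed here.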

Additional observations from a re-analysis of the deposited data

Results flagged for a closer look

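Of 118 groups of 4 tumors examined, 7 held a tumor that stood apart from the other 3 by more of the group's range than Dixon's 95% limit allows, and chance gives about 5.9. In the cxC26 IL6KOs1 group these were the Fos share of FOS transcripts in tumor 1 (20.5%, the others 10.8% to 11.3%), the Junb share of JUN transcripts in tumor 2 (28.0%, the others 31.1% to 31.4%), Il6 in tumor 3 (2.46 log2 CPM, the others 1.99 to 2.04), Spp1 in tumor 3 (12.90 log2 CPM, the others 12.77 to 12.79) and Il1rl1 in tumor 1 (10.42 log2 CPM, the others 11.17 to 11.26). The summed mast cell markers of knockout tumor 1 were 24.2 CPM, against 131 to 142 in the other 3. In the cxC26 scr group the summed T cell markers of tumor 2 were 4.79 CPM, against 2.64 to 2.97 in the others.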

How the results depend on the processing

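The number of members called lower was 5 to 6 and the number called higher 1 in every alternative but the following. With a 2-fold threshold 1 member was lower and 0 higher, and over all genes 829 were higher and 521 lower, in place of 2529 and 2748. With no filter on low values 0 members were higher, Elk3, Hspd1 and Hspa5 did not pass (adjusted p 0.0542 to 0.0715), and with single tumors left out 0 to 1. The adjusted p of Ier3 lay between 3.34e-05 and 0.0054 over its alternatives, and that of Jund between 0.00527 and 0.0620.

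With quantile normalization Spp1 was -0.095, and with single tumors left out it lay between -0.0051 and 0.067 and Il1rl1 between -0.13 and 0.15. With the regional median removed the sign turned for Fosl1 (-0.20), Nfe2l1 (0.095), Btg1 (-0.11), Mcl1 (-0.060), Elk3 (-0.039), Creb1 (0.084), Mapk3 (0.14), Dusp6 (-0.28) and Il1rl1 (0.38), and the cause was not tested.

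The difference in Fosb share was -1.69 points with coding length and -1.74 without length. With single tumors left out the differences in share were 3.51 to 6.79 points for Fos, -3.45 to -2.55 for Fosb, 8.38 to 9.73 for Fosl1, -13.1 to -9.86 for Fosl2, -9.68 to -8.33 for Junb and 9.59 to 12.4 for Jund. None of these passed, since 3 tumors against 4 cannot give an exact permutation p below 0.0571.

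Nothing but the number ties tumors across the groups, and same-numbered tumors did not deviate together. With the replicate block 2477 genes were higher and 2688 lower, and 1 member was higher and 5 lower. The paired shares kept their values (Fos 5.89, Fosb -3.10, Fosl1 9.15, Fosl2 -11.9, Junb -9.14, Jund 11.2 points), but 4 pairs cannot give a p below 0.125. The depth, at least 126 reads for each member in each tumor, limits the low genes Fos, Fosb and Egr2 most.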
